A study of Arabidopsis thaliana with 26 samples.

Results

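The regions described here are the outermost 500 kb of the 8 Arabidopsis chromosome ends that carry no nucleolus organizer, the tandem arrays of ribosomal RNA genes from which the nucleolus forms. These are both ends of chromosomes 1, 3 and 5 and the right ends of chromosomes 2 and 4. They are written here as 1L, 1R, 2R, 3L, 3R, 4R, 5L and 5R. Members were all HindIII fragments that start within 500 kb of a left end or finish within 500 kb of a right end, whatever their contacts. They numbered 2153 of the 66846 fragments in the files. The left ends of chromosomes 2 and 4 (543 fragments), next to which the organizers lie, and the next 500 kb inwards of each end (2147 fragments) served as comparisons.

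The study made circular chromosome conformation capture (4C) libraries from aerial tissue of untreated Col-0 seedlings 14 days old. In 4C, crosslinked chromatin is cut and religated, and whatever was joined to a chosen fragment, the viewpoint, is amplified and sequenced. Each of 13 viewpoints had a replicate A and a replicate B, which makes 26 libraries, and all came from this one genotype, tissue and growth condition. On chromosome 1 the viewpoints were MEA F6 and MEA F8, PHE1 (labelled PHE) and AT1G51860. Chromosome 2 held FIS2 (labelled FIS) and CKI1, chromosome 3 held AT3G44380, and chromosome 5 held FLC. AG, FWA, SWN, hk4s and YAO lie on chromosome 4. MEA F6 and MEA F8 are neighbouring fragments of 1 locus. Aerial tissue mixes cell types and cell cycle stages, so each value is an average over nuclei.

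Telomeres cap the chromosome ends with short tandem repeats, and in Arabidopsis the adjoining arms are gene-rich and poor in transposons right up to the repeats. Arabidopsis telomeres are known from microscopy to lie around the nucleolus in interphase nuclei, while the centromeres lie at the nuclear periphery. The organizers of chromosomes 2 and 4 sit between telomere and arm at their left ends, which separates those ends from the rest.

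The outermost known 60 bases of the reference sequence (TAIR10 coordinates, RefSeq copy) are shown because they tell how far it reaches towards the telomere repeats. At 6 ends they held at least 2 adjacent copies of the repeat, whereas 5L had 1 copy and 5R had 2 separate ones, which is no repeat array. The sequences are given 5′ to 3′ on the forward strand, with each match to the plant telomere repeat, CCCTAAA or on the other strand TTTAGGG, in capitals. At right ends the last base is the chromosome's end.
1L, chr1:1-60: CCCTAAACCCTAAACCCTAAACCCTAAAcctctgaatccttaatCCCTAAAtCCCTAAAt
1R, chr1:30427612-30427671: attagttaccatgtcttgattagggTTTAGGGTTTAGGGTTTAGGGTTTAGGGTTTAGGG
2R, chr2:19698230-19698289: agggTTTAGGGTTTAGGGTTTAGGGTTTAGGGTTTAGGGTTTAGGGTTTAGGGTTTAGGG
3L, chr3:101-160: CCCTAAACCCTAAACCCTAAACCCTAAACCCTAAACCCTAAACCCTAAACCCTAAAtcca
3R, chr3:23459771-23459830: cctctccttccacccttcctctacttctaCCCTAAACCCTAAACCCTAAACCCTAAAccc
4R, chr4:18584997-18585056: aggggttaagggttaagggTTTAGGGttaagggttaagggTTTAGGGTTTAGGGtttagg
5L, chr5:1-60: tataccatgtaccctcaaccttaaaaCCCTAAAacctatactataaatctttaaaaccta
5R, chr5:26975443-26975502: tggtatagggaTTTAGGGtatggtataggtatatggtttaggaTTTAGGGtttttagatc

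All 8 windows held at least 1 match on one strand or the other, against 0.826% of the 1982541 windows of 60 bases without unknown bases in chromosomes 1 to 5. The outermost 1000 known bases held 81 matches at 2R and between 1 and 10 at the other ends. The left ends carried the repeat as CCCTAAA and the right ends as TTTAGGG, except 3R, whose 4 matches read CCCTAAA. By contrast, the left ends of chromosomes 2 and 4 open with 1000 unknown bases and then with other sequence, in which the first 60 known bases held no match. Over the whole 500 kb the repeat was about as common as inwards. The outermost regions held 640 matches and the next 500 kb held 583, or 500 and 517 without 2R, where 81 of 140 matches lay in the last 1000 bases.

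Genes begin close to these ends. The outermost annotated gene was NAC001 (AT1G01010, a transcription factor of the NAC family, chr1:3631-5899) at 1L, the pseudogene AT1G81020 at 1R, AT2G48160 at 2R, AT3G01015 at 3L, AT3G63540 at 3R and PRSL1 (AT4G40100) at 4R. At 5L and 5R it was a long non-coding RNA gene, AT5G00730 and AT5G09965. The 8 regions held 143 to 170 protein-coding genes each, whereas the left ends of chromosomes 2 and 4 held 116 and 146.

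Contact levels are given as reads at HindIII ends scaled to 1000000 kept reads of the library (RPM), averaged over the kept fragments of a region. A fragment was kept if it lay at least 100 kb from a centromere and 1 kb from the viewpoint and had a site of the viewpoint's second enzyme within 1000 bp of an end. Of the 2153 member fragments, 1824 (84.7%) passed for NlaIII and 1841 (85.5%) for DpnII, compared with 80.8% and 80.7% of all fragments. The viewpoint's own arm was left out throughout. This left 94 pairs of a viewpoint and an end, each in both replicates. Libraries held between 254750 and 3370541 kept reads. An end of a library rested on a median of 2620 reads, with 131 at the lowest, and no single fragment held more than 9.63% of them. Reads were found at 18.7% of the member fragments in AT1G51860 replicate B and at 45.7% to 97.2% in the other libraries.

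Contacts with the ends differed far more between viewpoints than between ends. The CKI1 viewpoint, 0.235 Mb from its own telomere, had geometric means of 32.7 and 35.3 RPM per fragment over the 7 ends in replicates A and B. MEA F6 had 24.1 and 26.9 RPM, and MEA F8 19.1 and 25.5 RPM, both 0.545 to 0.546 Mb from the end of their arm. These 3 viewpoints lie closest to a telomere and were the highest.

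SWN, which encodes a Polycomb histone methyltransferase, followed with 18.0 and 17.1 RPM. FLC, a repressor of flowering, had 16.4 and 16.7 RPM. FWA, an imprinted homeodomain gene, had 15.6 and 16.4 RPM. FIS2, a Polycomb subunit, had 14.7 and 15.4 RPM. These 4 viewpoints overlapped in their ranges across ends.

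AG, a floral homeotic gene, had 10.004 and 9.80 RPM per fragment, YAO 9.58 and 8.25, hk4s 7.59 and 5.79, and PHE1 7.41 and 7.43. The lowest were AT3G44380 with 6.14 and 4.76 RPM and AT1G51860 with 4.97 and 3.29 RPM, the viewpoints with the smallest relative distances from their centromeres. Replicate B was the lower in both, as in SWN, hk4s, YAO and AG, and the higher in all other viewpoints. The replicate difference was therefore small beside the spread between viewpoints, which was 8.40-fold between CKI1 and AT1G51860. RPM counts reads on the viewpoint's own arm in its total. Reads outside that arm were 48.8% and 52.5% of kept reads for CKI1 (A and B) and 34.8% and 27.4% for AT1G51860. Among reads outside it, the ends' share of reads divided by their share of fragments was 3.14 and 3.16 for CKI1. For AT1G51860 this ratio was 0.68 and 0.58.

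**Figure D1:**
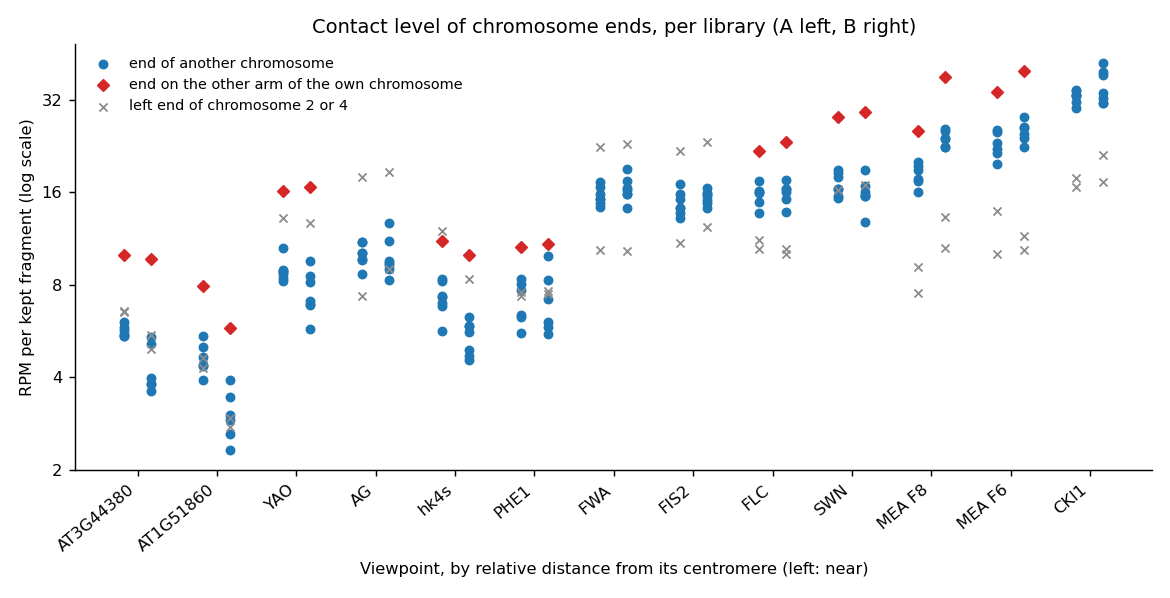
Mean RPM per kept fragment (log axis) of the outermost 500 kb of each chromosome end for the 13 viewpoints, ordered by relative distance from the centromere, with replicate A left and B right. Circles are ends on other chromosomes, diamonds the end across the centromere from the viewpoint and crosses the left ends of chromosomes 2 and 4. Diamonds lie above the circles of the same replicate in all 9 viewpoints that have one.

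Every end had a similar spread over viewpoints. At 1L the level was 4.52 RPM at the lowest (AT3G44380), 10.8 at the median and 38.1 at the highest (CKI1) over 11 viewpoints. At 1R it was 5.02 (AT3G44380), 15.5 and 36.7 (MEA F6), also over 11. At 2R it was 3.12 (AT1G51860), 11.8 and 26.6 (MEA F6). The highest viewpoint exceeded the lowest by 7.32-fold to 8.54-fold at these 3 ends. Medians of different ends rest on different viewpoints, since those on an end's own arm are left out. From the 9 viewpoints on other chromosomes, 1L and 1R had geometric means of 12.20 and 12.22 RPM.

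For 3L the values were 3.77 (AT1G51860), 13.7 and 32.6 RPM (CKI1) over 13 viewpoints. For 3R they were 4.67 (AT1G51860), 15.7 and 30.6 RPM (CKI1) over 12. For 4R they were 3.69 (AT1G51860), 14.3 and 32.6 RPM (CKI1) over 11. Again a single viewpoint, CKI1, gave the top value at each of them.

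5L ranged from 3.82 (AT1G51860) to 36.2 RPM (CKI1) with a median of 12.6, and 5R from 3.92 (AT1G51860) to 32.2 RPM (CKI1) with a median of 14.3. The highest viewpoint thus exceeded the lowest by 6.55-fold (3R) to 9.46-fold (5L) over the 8 ends.

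To compare ends with one another, differences between them were tested over the viewpoints that had values for both. Of the 28 pairs of ends, 2 passed at an adjusted p of at most 0.05 (exact sign-flip permutation test, two-sided, Benjamini-Hochberg over 28). 3L was lower than 3R by 0.19 ± 0.13 on the log2 scale (SD, adjusted p = 0.0410 in the exact test, 3L higher from 1 of 12 viewpoints). 5L was higher than 5R by 0.19 ± 0.19 (adjusted p = 0.0479 in the exact test, 11 of 12 viewpoints). The other 26 pairs did not pass. Both calls were fragile: no pair passed without the 1% of fragments with the most reads, per kb, or with MEA F6 and MEA F8 as 1 viewpoint. None passed without FIS2 A or FLC B, and 1 without MEA F6 B, CKI1 B, AG B, AT1G51860 A, AT3G44380 B or YAO B. Among ends on other chromosomes, each viewpoint's highest exceeded its lowest by 1.18-fold (FLC) to 1.57-fold (PHE1).

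Against the next 500 kb inwards, the ends were higher for 8 of the 13 viewpoints and lower for 5. From CKI1 the outermost 500 kb had 1.70 times the level of the next 500 kb, with log2 ratios of 0.74 and 0.80 in replicates A and B and higher values at 7 of 7 ends. MEA F6 (0.21 and 0.49), MEA F8 (0.32 and 0.38), FWA (0.30 and 0.36) and SWN (0.23 and 0.31) were likewise higher at all of their 7 or 8 ends. FIS2 (0.19 and 0.26) and FLC (0.14 and 0.17) were higher at 6 of 7, and AG (0.23 and 0.10) at 5 of 7.

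The opposite held for the other 5 viewpoints. From AT3G44380 the ends were lower than the next 500 kb at 7 of 7 ends, with log2 ratios of -0.38 and -0.53, and from AT1G51860 at 6 of 7, with -0.37 and -0.23. PHE1 (-0.12 and -0.20), YAO (-0.16 and -0.11) and hk4s (-0.02 and -0.12) were lower on average, with the ends higher at 2 of 7, 1 of 8 and 2 of 8. Both replicates had the same sign for all 13 viewpoints. Over viewpoints the mean was 0.11 ± 0.33 (SD, n = 13), which did not differ from 0 (p = 0.232, exact sign-flip permutation test, two-sided).

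The sign of this mean was not the same in both library batches of the study, which differ in how the sequencing adapters were added. In the first batch they were part of the 4C primers, and in the second they were ligated on afterwards. The 8 viewpoints of the first batch averaged 0.27 ± 0.26 (p = 0.0234, exact sign-flip permutation test, 7 of 8 higher), whereas the 5 of the second averaged -0.14 ± 0.27 (p = 0.312, exact test, 1 of 5 higher). With 5 viewpoints this test cannot give a p below 0.0625. The second batch holds the 3 viewpoints with the smallest relative distances from their centromeres, and all of its viewpoints used NlaIII as second enzyme. All DpnII viewpoints lie in the first batch. Batch, second enzyme and position are thus largely confounded, and their parts cannot be told apart.

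Counted by end, the outermost 500 kb was higher than the next 500 kb in both replicates in 49 of the 94 pairs of viewpoint and end (52.1%) and lower in both in 26 (27.7%). Of all 2678 comparisons between neighbouring 500 kb bins outside the viewpoint's arm, the outer bin was higher in both replicates in 40.1% and lower in both in 26.3%. The share of ends lower than their neighbour was thus near the background, and that of ends higher than it was above the background. By viewpoint, the share of higher ends was above the background for 8 of 13 and below it for 5. This background is pooled over all viewpoints. Levels went on falling inwards from CKI1 and on the whole rose from AT3G44380, up to 5.75 Mb. The split by viewpoint therefore does not show a trait particular to the ends. CKI1 and MEA F8 had 7 of 7, SWN 7 of 8, FWA 6 of 7, FIS2 and MEA F6 5 of 7, and AG and FLC 4 of 7. AT3G44380 and YAO had none.

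**Figure D2:**
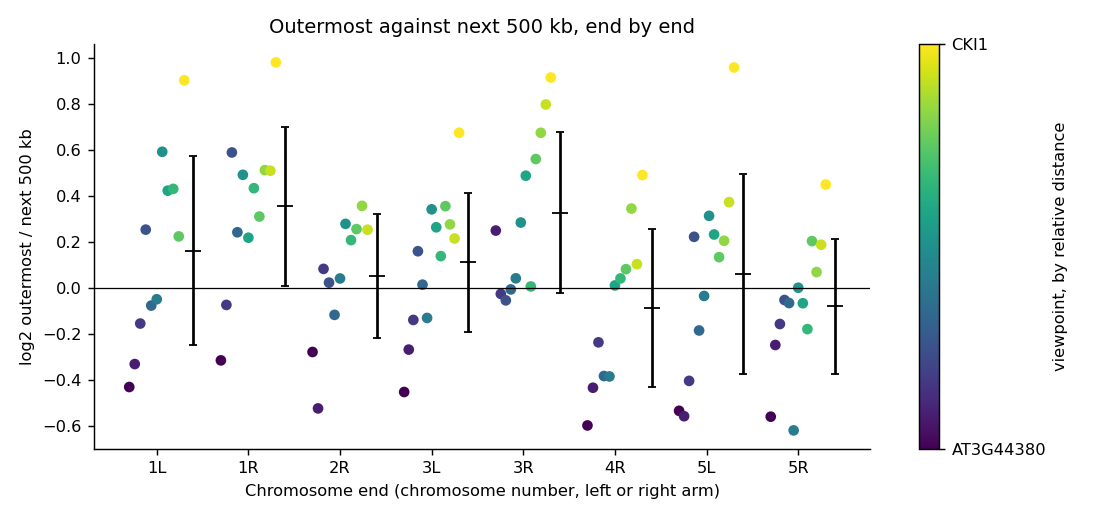
Log2 ratio of the outermost over the next 500 kb for each end, with a point per viewpoint (mean of both replicates), coloured by relative distance of the viewpoint from its centromere, and the mean and SD over viewpoints as bars. 1R and 3R have the highest means, 0.36 and 0.33, and dark points (near the centromere) lie mostly below 0. Viewpoints on an end's own arm are left out, so the set differs between ends.

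End by end, 2 of the 8 ends differed from their next 500 kb, each over its own set of viewpoints. 1R lacked PHE1 and AT1G51860 and 3R lacked AT3G44380, whose mean ratios over the ends they had were negative. 1L lacked MEA F6 and MEA F8 and 2R lacked FIS2 and CKI1, whose means were positive. The part of these sets in the calls was not tested. 1R was higher by 0.36 ± 0.34 on the log2 scale (SD, 9 of 11 viewpoints, adjusted p = 0.0430, exact sign-flip permutation test, Benjamini-Hochberg over 8 ends). 3R was higher by 0.33 ± 0.35 (9 of 12 viewpoints, adjusted p = 0.0430, same exact test). Both stayed positive in all 46 alternatives run, but these calls were borderline: 6 of 18 alternative settings kept each of them, and both were lost without any one of PHE1 A, FLC B, AT3G44380 A, hk4s A or YAO B (adjusted p of 0.0527 to 0.109, exact test). Among the 18, the second batch alone leaves 4 viewpoints at each end, and DpnII 5 at 1R and 6 at 3R. These are too few for the test to pass after adjustment over the ends. The means at the other 6 ends lay between -0.09 (4R) and 0.16 (1L), with adjusted p between 0.432 and 0.639 in the exact test. At 4R and 5R the ends were lower on average, from 5 of 11 and 8 of 13 viewpoints.

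The contrast was larger against the rest of the arm, which includes pericentromeric chromatin beyond 100 kb from the centromere. CKI1 contacted the ends 3.37 times as much as the rest of the arms (log2 ratio of 1.75 and 1.76 in replicates A and B). MEA F6 (1.13 and 1.55) and MEA F8 (1.19 and 1.47) came next, at about 2.5-fold. SWN had 0.84 and 0.97, FWA 0.84 and 0.86, FIS2 0.75 and 0.77, and FLC 0.75 and 0.76. For these 7 viewpoints every end lay above the rest of its arm.

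AG (0.26 and 0.19) and YAO (0.22 and 0.20) were slightly higher, hk4s slightly lower (-0.10 and -0.12), and PHE1 lower (-0.26 and -0.30). AT3G44380 (-0.42 and -0.63) and AT1G51860 (-0.50 and -0.71) lay below the rest of the arm at all 7 ends. For AG, 2R was the 1 end below the rest of its arm (-0.99). Without the 1% of fragments with the most reads this value was 0.33 and the mean of AG over its ends 0.44, against 0.22 with them. Over viewpoints the ends were higher by 0.51 ± 0.75 (SD, 9 of 13 viewpoints, p = 0.0332, exact sign-flip permutation test, two-sided).

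That call rests on the viewpoints nearest to ends without an organizer. With MEA F6 and MEA F8 as 1 viewpoint the mean was 0.44 (p = 0.0654, exact test), and without MEA F6, MEA F8 and CKI1 it was 0.22 (p = 0.258, permutation test). By batch it was 0.84 ± 0.65 for the 8 viewpoints of the first batch (p = 0.0234, exact test) and -0.02 ± 0.62 for the 5 of the second (p = 0.938, exact test). Single ends passed at 1R (0.98 ± 0.67, 10 of 11 viewpoints, adjusted p = 0.0156, exact test) and 3R (0.60 ± 0.61, 9 of 12, adjusted p = 0.0273, exact test). As above, each end had its own set of viewpoints. 3R no longer passed with MEA F6 and MEA F8 as 1 viewpoint (adjusted p = 0.0547, exact test), whereas 1R did, and 3R did not pass with the deposited totals either (0.41, adjusted p = 0.075, exact test). Neither passed for viewpoints of 1 second enzyme alone or in the second batch alone. Nor did they without MEA F6, MEA F8 and CKI1 (adjusted p = 0.125 at 1R and 0.219 at 3R, exact test). The second batch leaves 4 viewpoints at each of 1R and 3R, and DpnII leaves 5 at 1R and 6 at 3R. These are too few for the test to pass after adjustment over the ends. The other 6 ends had means between 0.22 (2R) and 0.56 (5L) and adjusted p between 0.0534 and 0.398.

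The level of the ends followed the place of the viewpoint on its arm. Across the 13 viewpoints, the log2 ratio of ends to rest of arm had a Pearson r of 0.90 and a Spearman rho of 0.92 with the viewpoint's relative distance from its centromere (the distance as a fraction of the arm's length). When AT3G44380 and CKI1, whose positions lie farthest from the median, were left out, r was 0.85 and rho 0.88 (n = 11). Within the first batch r was 0.86 and rho 0.88 (n = 8). For the ratio to the next 500 kb, r was 0.86 and rho 0.90 over the 13, and within the first batch r was 0.67 and rho 0.79 (n = 8). With the absolute distance to the centromere in place of the relative one, r for the rest of the arm was 0.76. These are descriptions over sites, some on the same arm, and the viewpoints share ends and batches.

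The relation was seen at each end separately, with rho between 0.87 (5R) and 0.96 (1R) over 11 to 13 viewpoints. It was not a strict order. YAO, at a relative distance of 0.306, had 0.21, whereas hk4s at 0.554 and PHE1 at 0.598 had -0.11 and -0.28.

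**Figure D3:**
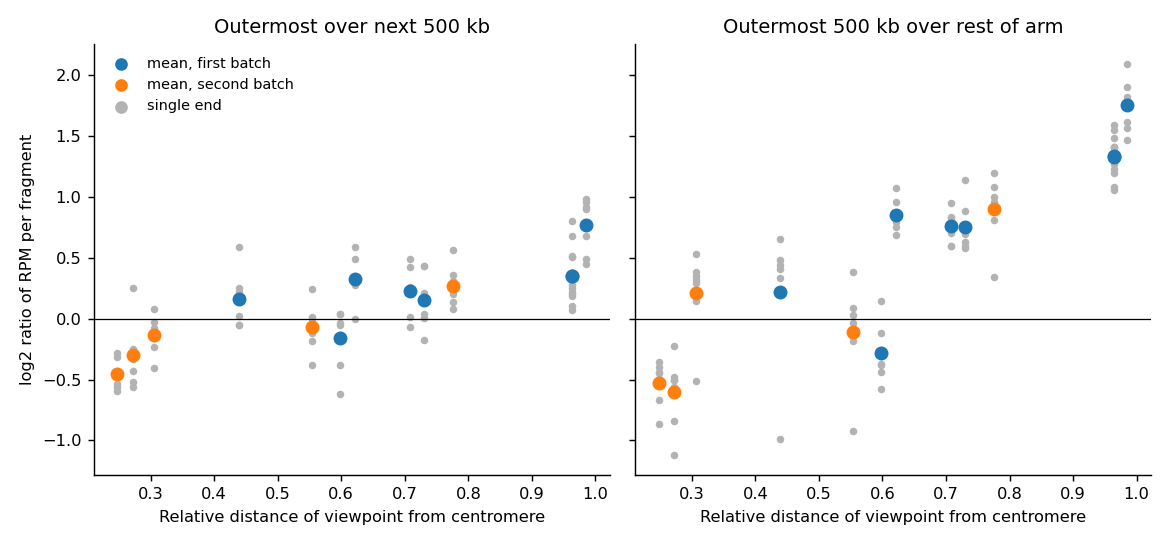
Log2 ratio of RPM per fragment of the ends over the next 500 kb (left) and over the rest of the arm (right) against the relative distance of the viewpoint from its centromere. Grey points are single ends and coloured points the mean of a viewpoint, by batch; the means run from below 0 near the centromere to 0.77 (left) and 1.75 (right) for CKI1.

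Further inwards the curves kept apart. Relative to the outermost 500 kb, the level from CKI1 was lower by 0.77 in the next 500 kb, by 1.06 at 1.75 Mb and by 1.82 at 5.75 Mb on the log2 scale. From MEA F6 it was lower by 0.35, 0.67 and 1.33 at the same distances, and from FWA by 0.33, 0.51 and 0.84. From AT3G44380 it was higher, by 0.45, 0.49 and 0.74. For PHE1 and hk4s it stayed within 0.25 of the outermost bin at these distances. The outermost bin was the highest bin of its arm in 7 of 7 pairs each from CKI1, MEA F6 and MEA F8, in 7 of 8 from SWN and 6 of 7 from FWA, and in none from AT1G51860, AT3G44380, PHE1 or YAO.

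**Figure D4:**
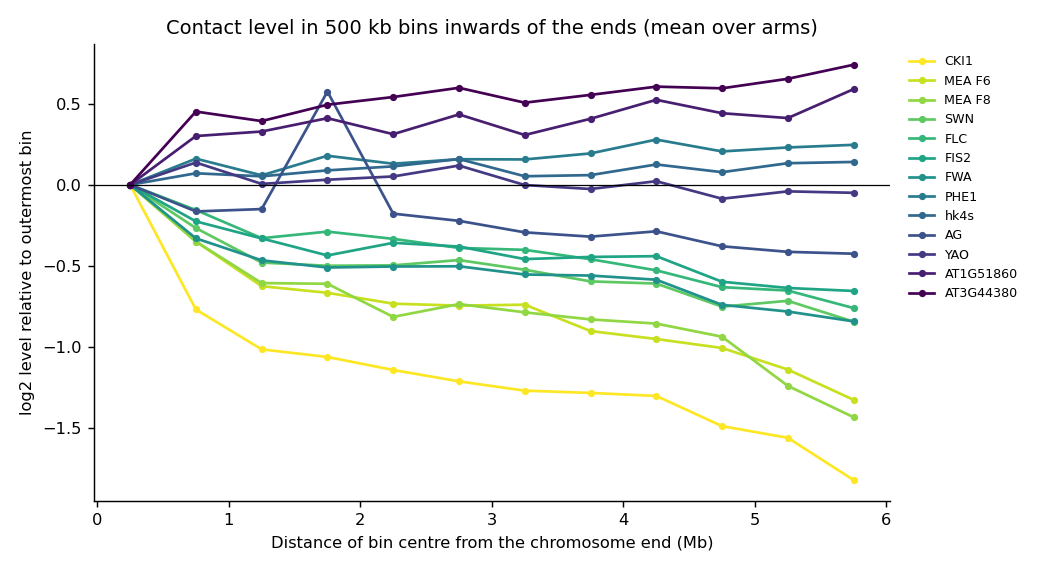
Mean log2 contact level of 500 kb bins relative to the outermost bin, against distance from the chromosome end, with a line per viewpoint averaged over 7 or 8 arms. The lines fan out from the end, down to -1.82 for CKI1 and up to 0.74 for AT3G44380 at 5.75 Mb; the AG line peaks at 1.75 Mb (0.57).

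For 9 viewpoints, an end without an organizer lies on the other arm of their chromosome. For each of these 9, the end on the other arm of its chromosome was the highest of its ends without an organizer. YAO had 16.2 and 16.6 RPM per fragment at 4R in replicates A and B, against 7.06 to 10.04 RPM at its 7 other ends. AT3G44380 had 9.97 and 9.70 RPM at 3L, against 4.52 to 5.55 RPM elsewhere. SWN had 28.03 and 29.1 RPM at 4R, against 14.6 to 18.8 RPM. In all 9 viewpoints, both replicate values lay above the replicate means of the other ends without an organizer. Single libraries overlapped only for MEA F8, with 25.3 RPM at 1R in replicate A and 25.7 RPM at 3R in replicate B.

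AT1G51860 had 7.92 and 5.77 RPM at 1L, against 3.12 to 4.67 RPM at its other ends. PHE1 had 10.6 and 10.9 RPM at 1L, against 5.80 to 9.13 RPM. hk4s had 11.1 and 9.97 RPM at 4R, against 5.10 to 7.24 RPM. FLC had 21.8 and 23.3 RPM at 5R, against 14.3 to 16.8 RPM. MEA F6 had 33.9 and 39.6 RPM at 1R, against 21.2 to 26.6 RPM, and MEA F8 25.3 and 37.8 RPM, against 19.3 to 22.9 RPM. With each end set against its own mean level from other chromosomes, the same-chromosome end was higher by 0.73 ± 0.18 on the log2 scale (SD, n = 9), or 1.66-fold. All 9 viewpoints were higher, by 0.49 (MEA F8) to 1.003 (YAO), and p = 0.00391 in an exact sign-flip permutation test is the smallest it can give. With MEA F6 and MEA F8 as 1 viewpoint the mean was 0.75 (n = 8, p = 0.00781, same exact test). SWN, hk4s and YAO share the end 4R, and PHE1 and AT1G51860 share 1L, so the 9 values are not independent.

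The other 4 viewpoints share their chromosome with an organizer end on the other arm. That end was above all their other ends for AG (18.2 RPM), FWA (22.7 RPM) and FIS2 (22.6 RPM). For CKI1 the ends without an organizer had 30.6 to 37.9 RPM, all above the 18.8 RPM of 2L. In replicate A of hk4s, 4R had 11.1 RPM, below the 11.9 RPM of 2L on another chromosome.

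For each of the 9 viewpoints, the rest of that arm was also higher than the rest of the other arms whose ends lack an organizer. For YAO it had 23.4 RPM per fragment, against 5.69 to 7.87, and for MEA F6 12.2, against 8.75 to 10.2. The higher level was therefore not particular to the end. The study reports more contacts with the other arm of a chromosome than with other chromosomes. The same-chromosome end was not always above its neighbour. In 6 of the 9 viewpoints the same-chromosome end was lower than the next 500 kb of the same arm, by 0.05 (PHE1) to 0.45 (AT3G44380) on the log2 scale, and it was higher for MEA F6 (0.51), MEA F8 (0.51) and SWN (0.08). Within batches the mean was 0.57 ± 0.11 in the first (4 of 4 viewpoints) and 0.85 ± 0.11 in the second (5 of 5), and these batches are too small for the exact test to pass.

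Compared with the left ends of chromosomes 2 and 4, the 8 ends did not differ beyond the spread between viewpoints. The log2 difference averaged 0.20 ± 0.59 (SD, n = 13, 7 of 13 higher, p = 0.258, exact sign-flip permutation test, two-sided). The 3 viewpoints within 1 Mb of an end without an organizer stood out. SWN, 0.886 Mb from the organizer end of its own arm, did not, with 17.5 RPM, against 16.5 RPM at 2L. MEA F6 had a geometric mean of 25.5 RPM at the 7 ends, against 11.4 RPM at the organizer ends. MEA F8 had 22.1 RPM, against 9.92 RPM. CKI1 had 34.0 RPM, against 18.1 RPM. FLC had 16.5 RPM, against 10.5 RPM.

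For hk4s (6.63 RPM, against 9.97 RPM) and YAO (8.89 RPM, against 12.9 RPM), both on the left arm of chromosome 4, the ends were lower than 2L, the one organizer end left to them. AG had 9.90 RPM, against 12.2 RPM. 4L lies on the chromosome of AG and FWA, and 2L on that of FIS2 and CKI1. When only ends on other chromosomes were taken, an organizer end was below all the other ends in 10 of 19 pairs, within their range in 5 and above it in 4 (2L and 4L from AT3G44380, 2L from hk4s and YAO). Divided by genomic DNA reads, the 8 ends were higher by 0.80 (13 viewpoints, p = 0.000244, permutation test, the smallest it can give). At 2L, 5 fragments held 46.6% of the genomic DNA reads (8.01 reads per kb, against 4.68 at 4L) and this end carries an annotated ribosomal RNA gene; the part of these fragments in the change was not tested. The 8 ends had 4.11 to 4.88 genomic DNA reads per kb.

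Within the ends, contacts per fragment were not concentrated at the very tip. In steps of 50 kb, the highest step was the terminal one only at 3R, where it had 1.69 times the mean of its end (log2 0.75 ± 0.45, SD over 12 viewpoints, higher in 11). The other highest steps lay at 400 to 450 kb at 1L (0.57) and 5R (0.30), 100 to 150 kb at 1R (0.29), 150 to 200 kb at 4R (0.44), and 250 to 300 kb at 2R (0.29), 3L (0.20) and 5L (0.18). Levels per fragment rose with fragment length (rho of 0.58 over member fragments), and steps differed in their number of kept fragments. At 1L steps held 13 to 34 fragments, with 13 to 14 in its highest one, and at 3R 14 to 32, with 14 to 16. The part of fragment length in these peaks was not tested. From CKI1 the terminal step was higher than the mean of the end by 0.60 on average over ends and from FWA by 0.34. From AT3G44380 it was lower by 0.89 and from hk4s by 0.24.

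**Figure D5:**
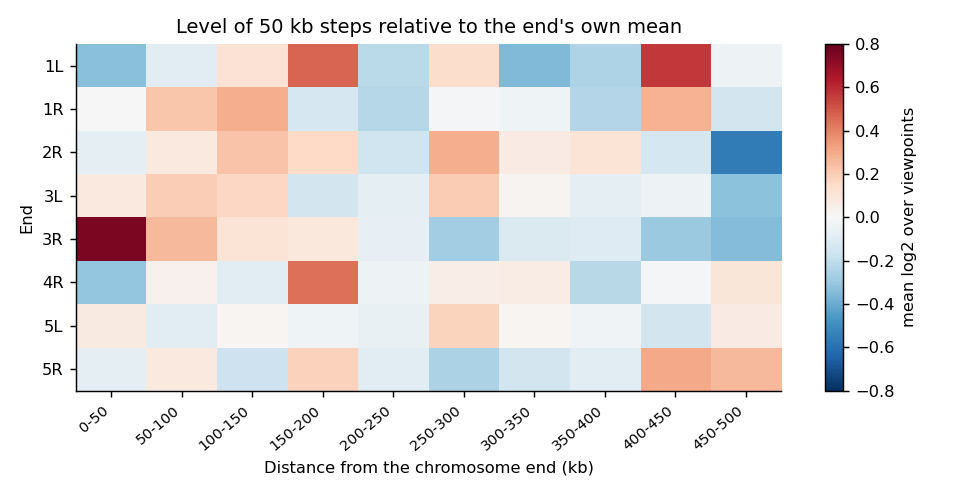
Level of the 50 kb steps of each end relative to the end's own mean, as mean log2 over viewpoints (red above, blue below), with the chromosome end at the left. The terminal step of 3R (0.75) and the 400 to 450 kb step of 1L (0.57) are the highest. Levels are per fragment and were not corrected for fragment length.

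The outermost HindIII fragment itself, the last before the end of the known sequence, had reads from most viewpoints except at 3L. Such reads are common among member fragments. Of those kept for both enzymes, 25.9% (4R) to 45.8% (1R) had reads from all viewpoints, and at most 0.49% (1L) from none. At 3R the outermost fragment, of 3126 bp, had a median of 15.2 RPM and reads from 11 of 12 viewpoints. At 1R (2994 bp) the median was 8.87 RPM with reads from 11 of 11, and at 4R (3922 bp) 9.29 RPM from 9 of 11. At 1L, where it measures 304 bp and has no usable DpnII site, the median was 4.02 RPM with reads from 11 of 11. It fails the filter for the DpnII viewpoints, which are counted here all the same. At 3L (1287 bp, without a usable NlaIII site) reads came from 6 of 13 viewpoints and the median was 0.

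By fragment, the highest mean level of each end was found on long fragments, most of them with more than 1 gene. At 3R it was a fragment of 12050 bp (chr3:23417040-23429089) with APG1, a chloroplast methyltransferase, and the cytokinin oxidase CKX6, with 7.27 RPM (hk4s) at the lowest, 58.8 at the median and 295.5 (CKI1) at the highest. At 5L it was chr5:81506-87556 with SQD2, the sulfolipid synthase, with 2.32 (YAO), 58.1 and 188.4 RPM (CKI1). This one was the top fragment of its end for 5 of 12 viewpoints. At 1L it was chr1:409064-421169 (12106 bp) with the metacaspase gene MC1 and CER1, which acts in wax synthesis, with 19.3 (hk4s), 37.7 and 104.2 RPM (FWA).

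At 1R the highest fragment lay in SUS2, a splicing factor of the PRP8 family (chr1:30118208-30121389), with a median of 44.2 RPM. At 2R it held the vacuolar exchanger MHX and the chromatin remodeller subunit SWI3A, with 45.7 RPM, and at 3L the proton pump subunit VMA10, with 45.1 RPM. At 5R it held PSBO1 of photosystem II, with 35.9 RPM. Except for 5L, such a fragment was the top one of its end for only 1 or 2 viewpoints. The 8 fragments measured 3182 to 12106 bp, whereas the median fragment of the ends measured 1041 to 1404 bp, and across the 1697 member fragments kept for both enzymes the mean level had a Spearman rho of 0.58 with fragment length. With the genomic DNA reads of a fragment the mean level had a rho of 0.0071. At the scale of single fragments, replicates had a median rho of 0.34 (lowest 0.03, highest 0.76, 13 viewpoints). Levels of single fragments were thus noisy for most viewpoints. Pairs of viewpoints had a median of 0.26 (78 pairs). Pairs within DpnII had 0.35 to 0.80, whereas pairs of a DpnII and a second-batch NlaIII viewpoint had 0.04 to 0.22. The named fragments rest on means over both enzymes, and the part of enzyme and batch was not tested.

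The recorded features gave no call between the ends and the next 500 kb, but with 8 ends the smallest p of the test is 0.00781 and a single feature could not have passed the adjustment on its own. Of 18 features in the files, none passed after Benjamini-Hochberg adjustment over the 18 (exact sign-flip permutation test over 8 ends), and 2 had an unadjusted p under 0.05. The density of H3K4me2, a mark of active and poised genes, was 40.03 ± 1.6% of a fragment in the ends and 37.4 ± 1.1% in the next 500 kb (SD, n = 8, 8 of 8 higher, adjusted p = 0.141, exact test). That of H3K36me2 was 34.8 ± 2.7% and 33.0 ± 2.6% (7 of 8 higher, adjusted p = 0.211, exact test). Gene number was 42.9 ± 3.0 per 100 kb in the ends and 41.9 ± 5.4 in the next 500 kb (adjusted p = 0.806, exact test). Fragment length was 2167 ± 130 bp and 2219 ± 284 bp (adjusted p = 0.806, exact test). With ends of 1 Mb, H3K4me2, H3K4me3 and the sequencing input passed (adjusted p = 0.0469 each, exact test).

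Beside the rest of the 8 arms, the ends were poor in transposons and in H3K9me2, and the next 500 kb were about as poor. The ends held 4.16 transposable elements per 100 kb, against 4.91 in the next 500 kb, 18.1 in the rest of the arms and 16.2 at the left ends of chromosomes 2 and 4. The heterochromatic mark H3K9me2 covered 0.613% of a fragment on average in the ends, against 0.691% in the next 500 kb, 4.87% in the rest of the arms and 2.92% at the organizer ends. Transcribed sequence covered 23.9% in the ends, 22.4% in the next 500 kb and 16.2% in the rest of the arms. These pooled values are descriptions without a test.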

How the data were processed

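The authors cut nuclei with HindIII, used NlaIII (7 viewpoints) or DpnII (6 viewpoints) as second enzyme and pooled PCR products within a replicate. They aligned reads to TAIR10 with Bowtie 0.12.7 and shared reads with several matches out by weight, so the deposited values are expected counts per fragment end, without normalization or filter. Also deposited were genomic DNA reads per fragment, in the same unit of expected counts, and signal densities (percent of a fragment covered) of histone marks, transcription and input from published data. Annotation counts and distances were deposited too.

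All 66846 deposited fragments matched a HindIII digest of the reference. Deposited second-site distances fit NlaIII in every file, so the reference sequence was searched for the second enzyme of each viewpoint. Methods and supplementary table of the study name different enzymes for the 7 NlaIII viewpoints; the methods were followed. Counts were used as deposited, without rounding, since no count model was fitted. RPM was computed on reads at HindIII ends of kept fragments, and ratios were taken within a library, as log2 of mean RPM, then averaged over ends and replicates. The units of the tests were the 13 viewpoints, or the 8 ends for features. P-values were from exact sign-flip permutation over these units, two-sided. The study calls A and B biological replicates. Because PCR reads carried no molecular identifiers, errors are spreads over replicates or viewpoints, not counting intervals. The arm lengths and centromere distances follow the deposited distance columns.

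Differences between A and B over the ends correlated between viewpoints with a mean r of -0.09 in the first batch (28 pairs) and -0.00048 in the second (10 pairs). This correlation cannot show a shift shared by all ends of a library. The level of the ends was lower in B for every viewpoint of the second batch. In the first batch it was higher in B for all viewpoints but AG. The study sequenced the pooled libraries of a letter together within a batch, and an effect of the letter was not tested. The members, comparisons and named items were chosen with earlier results of these data known. The named fragment and 50 kb step of an end are those with the highest mean over viewpoints, the fragment being among those kept for both enzymes. One of these named items is not reported here. Promoter and fragment sequences were not used. Simulated libraries with known folds at the ends were used to test the procedure. Alternatives were the read kind, the averaging, the filters, the width of an end, the viewpoints taken and leaving out each library. Scripts ran under Python 3.11.15 with pandas 2.3.3, SciPy 1.17.1 and NumPy 2.4.6; plots used matplotlib 3.10.9.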

Additional observations from a re-analysis of the deposited data

Results flagged for a closer look

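The log2 ratio of the ends to the rest of the arm had the same sign at every end and in both replicates of 9 viewpoints, but not the same sign for all. It was positive for CKI1 (1.75), MEA F6 (1.34), MEA F8 (1.33), SWN (0.91), FWA (0.85), FIS2 (0.76) and FLC (0.75), and negative for AT1G51860 (-0.60) and AT3G44380 (-0.52). The difference between these viewpoints was not tested. AT1G51860 and AT3G44380 belong to the second batch, as does SWN, and the part of the batch in the contrast was not tested. Replicate B of AT1G51860 had reads at 18.7% of the member fragments. Its ratio was -0.71, and that of replicate A -0.50.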

How the results depend on the processing

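The higher level of the same-chromosome end kept its direction in all alternatives, with a mean log2 of 0.57 for the first batch, 0.85 for the second and 0.63 for the DpnII viewpoints, where 4, 5 and 2 viewpoints are too few to pass, and 0.63 to 0.82 without single libraries or one replicate letter. The ratio to the rest of the arm (0.51) was no longer past the threshold with MEA F6 and MEA F8 as 1 viewpoint (0.44), for NlaIII (0.36) or DpnII viewpoints (0.68) alone, or without MEA F6, MEA F8 and CKI1, the viewpoints within 1 Mb of an end without an organizer (0.22), and was -0.024 in the second batch. It was 0.49 to 0.52 without single libraries. The ratio to the next 500 kb (0.11) was 0.27 in the first batch, past the threshold, -0.14 in the second, 0.0011 for NlaIII and 0.25 for DpnII viewpoints alone, and 0.0023 without these 3. The difference from the organizer ends (0.20) was 0.80 after division by genomic DNA reads, past the threshold, 0.0069 with the deposited totals, -0.19 in the second batch and -0.068 without these 3. In these cases the cause was not tested, beyond the smaller number of viewpoints.

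The number of pairs of ends called (2) was 0 with the mean of log2(reads + 1), without the 1% of fragments with the most reads, per kb, with ends of 1 Mb, with MEA as 1 viewpoint, in either batch, for either enzyme and without these 3; it was 1 after division by genomic DNA reads and 4 with ends of 250 kb. It was 0 to 2 without single libraries, 0 without replicate A and 3 without replicate B. The correlation with viewpoint position (r of 0.90) was 0.87 with the deposited totals, 0.86 in the first batch, 0.88 without AT1G51860 and 0.79 without these 3. The features called (0) were 3 with ends of 1 Mb. The alternatives without AT1G51860, without these 3 and with ends of other chromosomes only were chosen after seeing the data.

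With the replicate letter as a replicate block, the mean values were 0.11 for the next 500 kb, 0.51 for the rest of the arm, 0.20 for the organizer ends and 0.73 for the same-chromosome end, since each viewpoint has both letters. The pairs called were 2, and r over 26 libraries was 0.89. The block changed no call. The shallowest end of a library held 131 reads.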

Other observations

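PHE1 and FWA, picked after their values were seen, lie at similar relative distances from their centromeres (0.598 and 0.621) and both belong to the first batch and to DpnII. Over the ends, PHE1 had log2 ratios to the rest of the arm of -0.26 and -0.30 in replicates A and B, and FWA 0.84 and 0.86. PHE1 was below the rest of the arm at 6 of 7 ends and FWA above it at 7 of 7. Both viewpoints differ by more than their replicates at these ends, and this was not tested.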
